A study of Mus musculus with 9 samples.

Results

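p53 is a transcription factor that is stabilised by DNA damage and other stress, and it switches on genes for cell cycle arrest, apoptosis and DNA repair together with genes that hold p53 itself in check. Mdm2 and Mdm4 keep p53 low in unstressed cells, and the kinase Atm, which is missing here, is one of the enzymes that release p53 from Mdm2 after a DNA break. Thymocytes are known for their strong apoptotic response to p53, and T-cell lymphomas are common in mice without p53 or without Atm. The set described here consists of 32 genes taken by name, p53 (Trp53) and 31 genes that it controls or that control it. Each gene was read from the probe set with the highest mean signal among those that the array annotation gives to that gene alone, and 30 of the 32 were measured, out of 18194 genes in all. Trp53 and Gdf15 were not analysed here, so the level of p53 mRNA itself is not part of what follows. Of the 30, the receptor genes Tnfrsf10b and Eda2r and the kinase gene Plk3 lay below the filter on low signals. Their mean signals were 19.5, 12.2 and 18.1 over the 9 arrays, against a limit of 25.3. This left 27 tested genes of 12369.

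The arrays hold total RNA of T-cell lymphomas that arose in G3 Atm-/- TERT-ER mice given 4-OHT (4-hydroxytamoxifen) and were carried in SCID mice, hosts that lack functional T and B lymphocytes. TERT-ER joins telomerase's catalytic protein to an oestrogen receptor domain, which makes telomerase depend on 4-OHT. The first group is 5 tumours kept on vehicle to passage 4, which by their label use ALT, the telomerase-free alternative lengthening pathway, and the second is 3 tumours kept on 4-OHT to passage 4 (telomerase tumours). Both groups derive from shared parental lines, and a single parental tumour, labelled telomerase-positive, has no replicate. It was set beside the groups, and was counted with the telomerase tumours in 1 alternative fit. Every tumour lacks Atm, and drug and telomere mechanism differ together between the groups and cannot be told apart. The labels do not say which tumours grew in different mice, so p-values measure no more than the spread between these samples.

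Some specimens carried RNA of other tissues. The summed signal of 20 skeletal muscle genes was 409 to 561 in ALT tumours, 11392, 890 and 479 in telomerase 1, 2 and 3, and 16863 in the parental tumour. The summed signal of 14 pancreatic acinar genes was 91914 in ALT 1, 145372 in ALT 2, 989 in ALT 3, 599 in ALT 4 and 197197 in ALT 5, against 412, 330 and 124363 in telomerase 1, 2 and 3, and was 305 in the parental tumour. Each group therefore has arrays with pancreatic transcripts (ALT 1, 2 and 5, telomerase 3) and without them (ALT 3 and 4, telomerase 1 and 2), whereas muscle transcripts were high in telomerase 1 alone among the passage 4 arrays. The T-cell genes Cd3d, Cd3e and Cd3g gave signals of at least 1229 in every array and of 3 measured B-cell genes Cd79a and Ms4a1 gave at most 28.6 and Cd79b 380 to 580. The 8 measured T-cell genes summed to 25985 to 32367 in ALT tumours, against 34062 to 36840 in telomerase tumours. Of them 3 fell and 1 rose in ALT tumours, where 10.1% of all tested genes fell and 7.48% rose. All ALT values lay below all telomerase values in Cd3d, Cd3e and Cd3g, and above them in Cd2 (459 to 724 against 273 to 366). The groups overlapped in Cd247, Thy1, Lat and Zap70, so the lower sum does not hold across the T-cell genes. In such bulk samples, fewer cells of a type and less RNA per cell cannot be told apart.

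The comparison of ALT with telomerase tumours asked how p53 targets stand in tumours that replaced telomerase by ALT. Of the 27 tested genes 5 fell in ALT tumours and 0 rose (limma, Benjamini-Hochberg adjusted p under 0.05 over all tested genes). That is 18.5% of the set, while 17.5% of all tested genes changed, 10.1% falling and 7.48% rising. At an unadjusted p under 0.05, 11 of the set were lower and 2 higher, where 17.4% of all tested genes were lower and 14% higher. The median log2 change of the set was −0.36, against −0.01 over all tested genes, and 23 of the 27 (85.2%) had a lower mean in ALT tumours, against 50.9% of all tested genes. The genes that fell were Zmat3, Ei24, Ppm1d, Polk and Rrm2b, and in each of them all 5 ALT values lay below all 3 telomerase values. Groups that did not overlap in this direction were seen in the same 5 of 27 and in 13.9% of all tested genes, and in the other direction in 0 of 27 and 10.9%.

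Without telomerase 1, the passage 4 array with the highest muscle sum, 2 of the 27 fell, Zmat3 and Ei24. That is 7.41% against 5.33% of all tested genes (4.07% rose), and the median of the set was −0.23. Telomerase 2, which stays in that fit, had a muscle sum of 890, above the 409 to 561 of the ALT tumours. Within the arrays without pancreatic transcripts (ALT 3 and 4 against telomerase 1 and 2) Zmat3, Ccng1, Phlda3 and Pmaip1 fell. That is 14.8% of the set against 3.67% of all tested genes (3.06% rose), with a median of −0.45. Muscle sums were 11392 and 890 in telomerase 1 and 2, against 531 and 561 in ALT 3 and 4. Muscle transcripts and group thus differ together in this comparison, wherever it is used below, and cannot be told apart. Within the arrays with these transcripts (ALT 1, 2 and 5 against telomerase 3) 0 of the 27 passed limma at an adjusted p under 0.05, where 1.6% of all tested genes fell and 1.12% rose, and the median was −0.09. That last comparison rests on 1 telomerase tumour, assumed to vary like the ALT tumours, and the difference between both kinds of array was not tested. With quantile normalisation 3 of 27 fell, where 8.46% of all tested genes fell and 9.1% rose. With a stricter filter on low signals 6 of 25 fell (12.9% and 9.71% of all) and with no filter 4 of 30 (6.06% and 4.52%). With a replicate block Zmat3 and Ei24 fell (5% and 3.01%). The part of muscle and pancreatic RNA in these shifts was not tested.

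**Figure D1:**
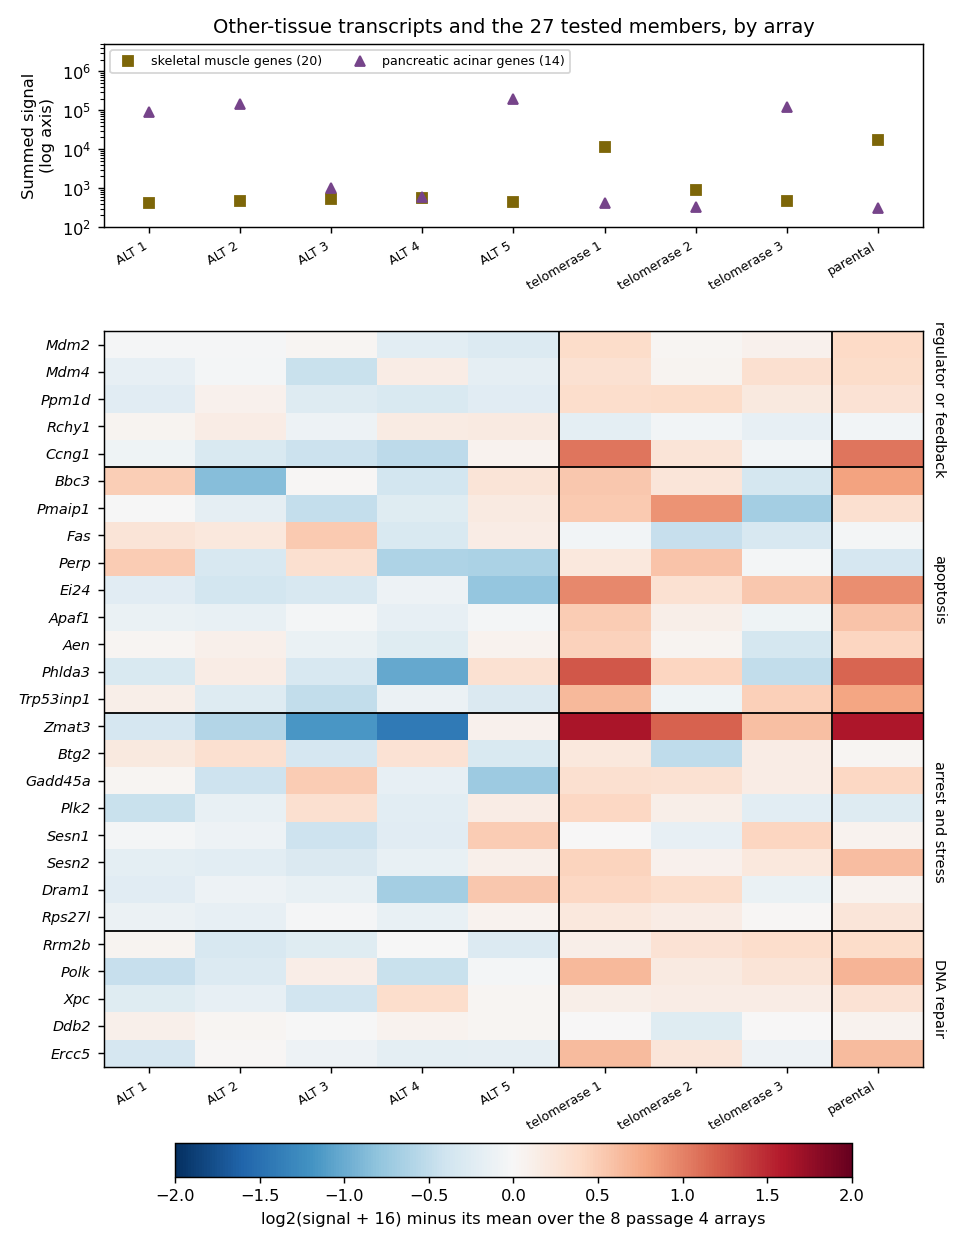
Upper panel, summed signal of skeletal muscle and pancreatic acinar genes per array (log axis); lower panel, log2(signal + 16) of the 27 tested genes minus the mean over the 8 passage 4 arrays, grouped by role, with ALT tumours left, telomerase tumours in the middle and the parental tumour right. Telomerase 1 and the parental tumour, the arrays with muscle sums of 11392 and 16863, are above the mean in most rows.

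Zmat3, which encodes an RNA-binding zinc finger protein induced by p53, had the largest change of the set. Its signal was 505, 418, 277, 229 and 680 in ALT 1 to 5, against 2024, 1460 and 977 in telomerase 1 to 3, and 1996 in the parental tumour. Even the highest ALT tumour, ALT 5, stayed below the lowest telomerase tumour. The means were 422 ± 181 (SD, n = 5) in ALT and 1487 ± 524 (SD, n = 3) in telomerase tumours, a log2 change of −1.82 (SE 0.34, limma adjusted p = 0.00584). Without telomerase 1 the change was −1.57 (adjusted p = 0.0347), in the arrays without pancreatic transcripts −2.69 (adjusted p = 0.00122) and in those with them −0.88 (adjusted p = 0.151).

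Ei24, an endoplasmic reticulum protein gene induced by p53 and tied to apoptosis and autophagy, had signals of 732, 661, 687, 799 and 496 in ALT 1 to 5, against 1692, 1061 and 1257 in telomerase 1 to 3, and 1656 in the parental tumour. All ALT tumours lay well below the telomerase tumours. The means were 675 ± 113 (SD, n = 5) in ALT and 1337 ± 323 (SD, n = 3) in telomerase tumours, a log2 change of −0.96 (SE 0.18, adjusted p = 0.00529). The change was −0.78 without telomerase 1, −0.84 in arrays without and −1.0 in arrays with pancreatic transcripts (adjusted p = 0.0266, 0.0783 and 0.0821). Zmat3 and Ei24 kept an adjusted p under 0.05 whichever of the 8 arrays was left out.

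Polk encodes a translesion polymerase that copies past damaged bases. It read 225, 258, 347, 228 and 309 in ALT 1 to 5, against 506, 362 and 381 in telomerase 1 to 3, and 514 in the parental tumour. ALT 3 came close to the lower telomerase values, and the log2 change was −0.58 (SE 0.17, adjusted p = 0.0384). The adjusted p was 0.167 without telomerase 1 and at or above 0.05 in 6 of the 8 fits that left out 1 array. Rrm2b, the p53-inducible subunit of ribonucleotide reductase that supplies nucleotides for repair, read 177, 134, 142, 169 and 139 in ALT 1 to 5, against 187, 212 and 223 in telomerase 1 to 3, and 223 in the parental tumour. Here telomerase 1 was the lowest of the telomerase tumours, and the gap to ALT 1 was small. Its log2 change was −0.41 (SE 0.12, adjusted p = 0.0424), with −0.48 (adjusted p = 0.0710) without telomerase 1 and the call lost in 6 of the 8 fits that left out 1 array and with the mean of its probe sets (adjusted p = 0.0992).

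Ppm1d encodes Wip1, a phosphatase that p53 induces and that in turn dampens p53 and the damage kinases. Its main probe set read 139, 176, 137, 131 and 140 in ALT 1 to 5, against 217, 219 and 192 in telomerase 1 to 3, and 205 in the parental tumour. The log2 change was −0.49 (SE 0.12, adjusted p = 0.0167), and it lost its call without telomerase 1 (adjusted p = 0.0762) and without telomerase 2. The second probe set of the gene went the other way, with 135, 158, 159, 128 and 130 in ALT 1 to 5, against 91.6, 107 and 116 in telomerase 1 to 3, and 88.7 in the parental tumour. Both probe sets separated the groups without overlap, in opposite directions. In a limma fit over all 22354 probe sets above the filter, they had log2 changes of −0.49 and 0.39 (adjusted p = 0.0140 and 0.0455), so the direction for the gene depends on the probe set, and their mean gave −0.05 (adjusted p = 0.747).

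**Figure D2:**
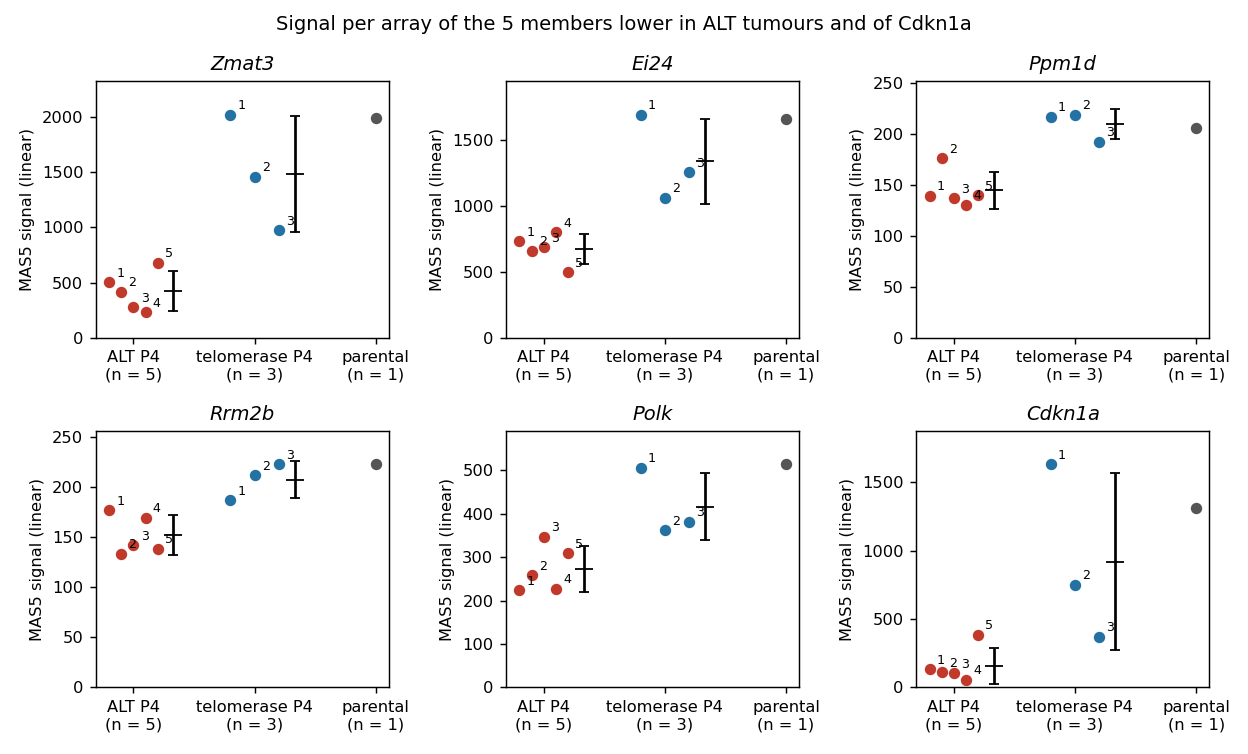
MAS5 signal on a linear axis in each array for the 5 genes that fell and for Cdkn1a, with points numbered by tumour and bars giving mean ± SD. In the 5 genes the ALT points all lie below the telomerase points, while for Cdkn1a ALT 5 (386) lies just above telomerase 3 (371).

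Promoter windows from RefSeq (GRCm38.p6, from 250 bases before to 50 after a transcript start) were searched for the p53 consensus of 10 letters, known by name as the p53 decamer, which reads the same on both strands. Of the 32 genes 24 had a window, 33 windows in all, and 12 windows of 11 genes (36.4%) held the decamer, against 8.36% of all 32851 windows. Adjacent decamers, 20 letters with at most 1 letter off, were found in 2 of the 33 windows (6.06%), those of Ccng1 and Rps27l, against 0.0883% of all windows. Windows of 1 gene can overlap, and a match describes letters, not binding. Decamers were also held by windows of Aen, Ccng1, Gadd45a, Mdm2, Rchy1, Rps27l and Sesn1, which did not pass in the main fit. Trp53, which was not analysed, held one too. A link between decamer and change was not tested. Shown first are windows of 3 genes that fell in ALT tumours by their main probe sets and hold 1 exact decamer, set in capitals. They are Ei24 (chr9:36797285-36797584, minus strand), Ppm1d (chr11:85311004-85311303, plus strand) and the decamer-bearing one of the 2 windows of Polk (chr13:96519138-96519437, minus strand).
Ei24: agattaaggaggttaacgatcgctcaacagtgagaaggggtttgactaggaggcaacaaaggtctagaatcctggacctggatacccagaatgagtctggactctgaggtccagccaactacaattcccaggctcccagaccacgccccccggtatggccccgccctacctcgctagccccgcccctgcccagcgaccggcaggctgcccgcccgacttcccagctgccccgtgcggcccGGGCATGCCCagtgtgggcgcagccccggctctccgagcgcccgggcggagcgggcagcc
Ppm1d: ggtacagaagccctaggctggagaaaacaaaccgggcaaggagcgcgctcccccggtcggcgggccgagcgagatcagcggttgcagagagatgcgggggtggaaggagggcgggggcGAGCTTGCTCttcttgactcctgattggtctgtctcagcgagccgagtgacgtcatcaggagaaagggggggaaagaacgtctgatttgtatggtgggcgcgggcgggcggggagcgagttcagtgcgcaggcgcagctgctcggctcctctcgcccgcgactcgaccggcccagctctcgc
Polk: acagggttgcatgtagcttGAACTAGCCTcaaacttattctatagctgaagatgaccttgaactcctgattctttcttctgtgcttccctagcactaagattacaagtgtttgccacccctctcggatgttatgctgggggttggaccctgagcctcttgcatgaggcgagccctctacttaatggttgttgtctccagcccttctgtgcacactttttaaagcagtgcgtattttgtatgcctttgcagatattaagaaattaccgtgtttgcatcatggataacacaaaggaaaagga

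Among the regulators and feedback genes of p53, 5 were tested and only Ppm1d passed, where 10.1% of all tested genes fell. Mdm2, the ubiquitin ligase that degrades p53 and is itself a target, read 370, 369, 387, 322 and 307 in ALT 1 to 5, against 487, 384 and 397 in telomerase 1 to 3, and 496 in the parental tumour. ALT 3 overlapped telomerase 2, and the log2 change of −0.26 (SE 0.12) did not pass (limma adjusted p = 0.167). A second probe set of Mdm2 gave −0.27. Mdm4, which blocks the activation domain of p53, read 902, 992, 740, 1124 and 895 in ALT 1 to 5, against 1261, 1055 and 1271 in telomerase 1 to 3, and 1318 in the parental tumour (log2 change −0.36, SE 0.13, adjusted p = 0.0848). ALT 4 lay above telomerase 2, so the groups overlapped. Another probe set of Mdm4 read 422, 540, 174, 179 and 1060 in ALT 1 to 5, against 134, 151 and 462 in telomerase 1 to 3, and 146 in the parental tumour. That probe set was high in exactly the 4 arrays with pancreatic transcripts, in both groups, and its log2 change of 0.79 had an adjusted p of 0.383. The mean of the Mdm4 probe sets gave a log2 change of 0.11 (adjusted p = 0.742), the opposite sign to the main one.

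Ccng1, the cyclin G1 gene and a p53 target that acts on Mdm2, read 1151, 983, 899, 842 and 1279 in ALT 1 to 5, against 2590, 1465 and 1178 in telomerase 1 to 3, and 2580 in the parental tumour. Telomerase 1 and the parental tumour stood apart, and telomerase 3 lay below ALT 5. The log2 change was −0.69 (SE 0.23, adjusted p = 0.0709), −0.36 without telomerase 1, −1.15 in arrays without pancreatic transcripts (adjusted p = 0.0460) and −0.06 in arrays with them. Of its other probe sets one gave −0.53 and one 0.45, and neither passed. Rchy1, a second ubiquitin ligase for p53, was at 374 to 461 in ALT and 351 to 388 in telomerase tumours (log2 change 0.23, adjusted p = 0.144).

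Of 9 tested genes of apoptosis 1 fell, Ei24, and 8 had a lower mean in ALT tumours. Over all tested genes 10.1% fell and 50.9% had a lower mean, and the roles were not tested as sets. Trp53inp1, a stress protein that promotes p53 activity, read 3318, 2562, 2155, 2808 and 2504 in ALT 1 to 5, against 4800, 2864 and 4246 in telomerase 1 to 3 (log2 change −0.55, SE 0.17, adjusted p = 0.0553), and was highest of all in the parental tumour at 5312. It narrowly missed the threshold, and its other probe set gave −0.58. Phlda3, an inhibitor of Akt signalling, spread widely, with 263, 366, 258, 153 and 410 in ALT 1 to 5, against 797, 446 and 228 in telomerase 1 to 3, and 753 in the parental tumour. Telomerase 3 lay inside the ALT range, and the log2 change of −0.63 had an SE of 0.38 (adjusted p = 0.298). It was −1.51 (adjusted p = 0.0438) in arrays without pancreatic transcripts and 0.55 (adjusted p = 0.353) in those with them. Pmaip1, which encodes the BH3-only protein Noxa, showed the same kind of split, with −1.06 (adjusted p = 0.0403) and 0.69 (adjusted p = 0.282).

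Bbc3, which encodes the BH3-only protein Puma, was at 35.3 to 115 in ALT and 57.0 to 118 in telomerase tumours, without separation (log2 change −0.23, adjusted p = 0.657). Apaf1, the scaffold of the apoptosome, was at 593 to 644 in all ALT tumours, against 946, 718 and 621 in telomerase 1 to 3 (log2 change −0.28, adjusted p = 0.163). Its second probe set went the other way (log2 change 0.24, adjusted p = 0.367 over all probe sets). The mean of its probe sets gave −0.02 (adjusted p = 0.946). Fas, a death receptor of lymphocytes, had the highest change of the set at 0.45 (SE 0.18, adjusted p = 0.115), with signals of 170, 165, 209, 111 and 156 in ALT 1 to 5, against 134, 96.8 and 110 in telomerase 1 to 3. Without ALT 4, the lowest of the ALT tumours, Fas rose (log2 change 0.57, adjusted p = 0.0272). Perp, a membrane protein gene of cell death and adhesion, and Aen, an apoptosis-linked nuclease gene, had log2 changes of −0.40 and −0.09 (adjusted p = 0.375 and 0.767).

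Aen is another gene with probe sets that part. Its main probe set read 349, 369, 309, 285 and 358 in ALT 1 to 5, against 475, 356 and 263 in telomerase 1 to 3. The dimmest read 40.3, 47.5, 51.3, 34.3 and 39.3 in ALT 1 to 5, against 22.9, 21.6 and 17.7 in telomerase 1 to 3, and 20.7 in the parental tumour. All ALT values of that probe set exceeded all others, with a log2 change of 0.67 (adjusted p = 0.0121 over all probe sets). Its telomerase and parental signals lay below the filter limit of 25.3. It was therefore tested only through its ALT signals, which favours a rise, and Aen counts as rising below by this probe set alone. When each probe set was tested alone, 7 genes of the set had at least 1 probe set that fell and 2 (Ppm1d and Aen) at least 1 that rose (25.9% and 7.41% of 27). Over all 12369 tested genes, 16.3% had at least 1 probe set that fell and 11.1% at least 1 that rose.

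**Figure D3:**
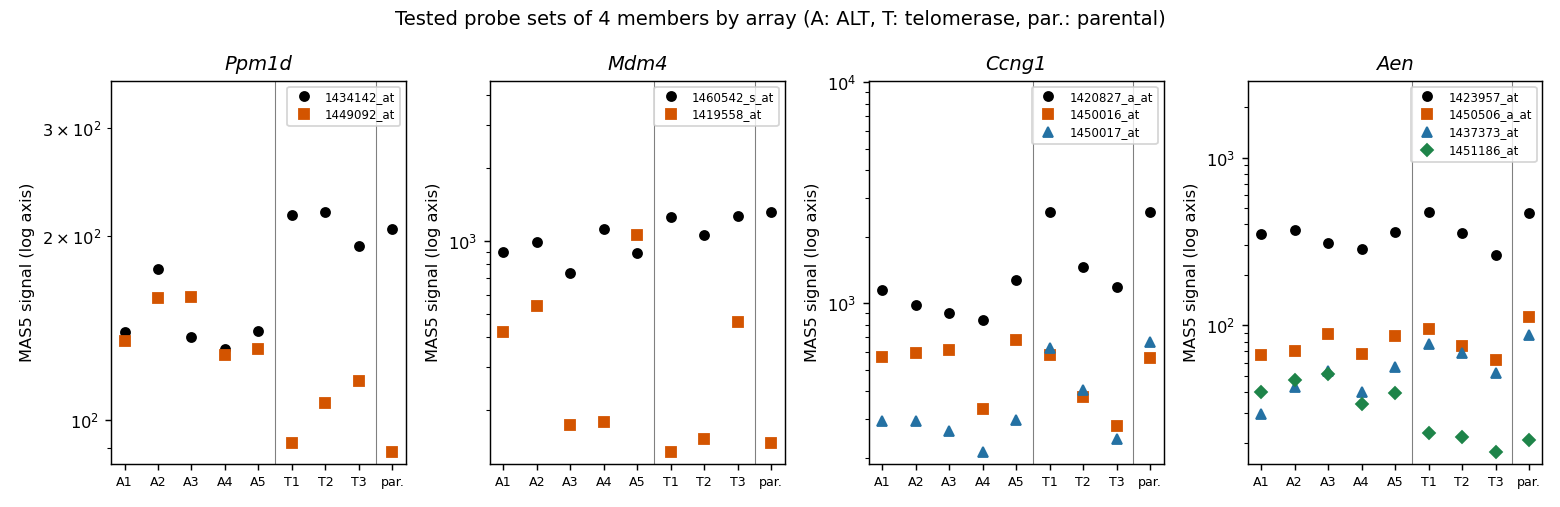
Signal (log axis) in each array of all tested probe sets of Ppm1d, Mdm4, Ccng1 and Aen, with ALT tumours left, then telomerase tumours and the parental tumour. The Ppm1d probe sets separate the groups in opposite directions, and 1 Mdm4 probe set is high in ALT 1, 2 and 5 and telomerase 3.

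Of 8 tested genes of arrest and stress responses only Zmat3 passed, and 7 had a lower mean in ALT tumours. Shares over all tested genes were 10.1% falling and 50.9% with a lower mean. Sesn2, a sestrin that restrains mTORC1 under stress, read 108, 107, 101, 112 and 137 in ALT 1 to 5, against 177, 136 and 149 in telomerase 1 to 3, and 202 in the parental tumour (log2 change −0.40, SE 0.13, adjusted p = 0.0574). ALT 5 and telomerase 2 were level, and the others separated. Its second probe set separated the groups fully, at 11 to 38.3 in ALT and 50.9 to 90.5 in telomerase tumours (log2 change −1.0, adjusted p = 0.0169 over all probe sets). Sesn1, its relative, did not pass (log2 change −0.15, adjusted p = 0.667). Btg2, an antiproliferative gene that p53 induces, stayed within 2478 to 3909 in ALT and 2192 to 3614 in telomerase tumours (log2 change 0.08, adjusted p = 0.821). Gadd45a, a growth arrest gene, Plk2, a polo-like kinase gene, and Dram1, a gene of autophagy, had log2 changes of −0.42, −0.17 and −0.33, with adjusted p of 0.270 or more. Rps27l, a ribosomal protein gene induced by p53, was at 6848 to 8029 in ALT and 7783 to 8836 in telomerase tumours (log2 change −0.20, SE 0.07, adjusted p = 0.0686).

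Of 5 tested DNA repair genes 2 fell, Polk and Rrm2b, where 10.1% of all tested genes fell. Ercc5, the endonuclease of nucleotide excision repair that cuts 3′ of a lesion, read 210, 276, 252, 235 and 238 in ALT 1 to 5, against 428, 323 and 251 in telomerase 1 to 3, and 428 in the parental tumour (log2 change −0.41, SE 0.16, adjusted p = 0.104). Telomerase 3 lay among the ALT tumours there too. Xpc and Ddb2, which recognise damage in that pathway, had log2 changes of −0.22 and 0.12 (adjusted p = 0.406 and 0.381). Ddb2 was nearly flat in ALT tumours, at 587 to 634. A second probe set of Ddb2 gave −0.05 (adjusted p = 0.743 over all probe sets).

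**Figure D4:**
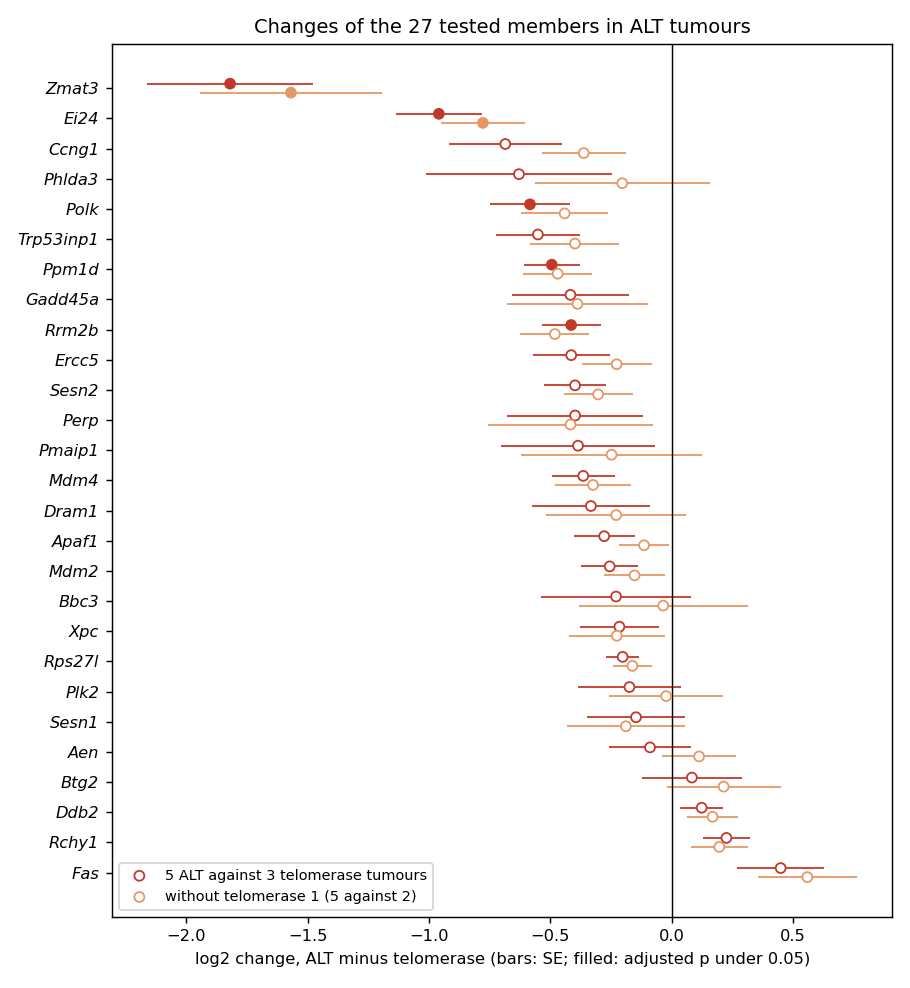
Log2 change (ALT minus telomerase, with SE) of each of the 27 tested genes over all 8 passage 4 arrays and without telomerase 1, where filled points have an adjusted p under 0.05. Filled points shrink to Zmat3 and Ei24 once telomerase 1 is left out.

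The median gap between the highest and the lowest telomerase tumour was 0.59 on the log2 scale over the 27 genes, against 0.28 over all tested genes, while for the ALT tumours these medians were 0.62 and 0.47. Telomerase 1 had the highest signal of the 8 passage 4 arrays in 14 of the 27 genes (51.9%), against 15.7% of all tested genes. Of the 5 genes that fell it was highest in 3, Zmat3, Ei24 and Polk. Genes called lower in ALT are highest in a telomerase tumour by selection, and telomerase 1 was highest in 40.2% of all 1245 of them. Set against the mean of the ALT tumours, the median difference of the 27 genes was 0.49 for telomerase 1, 0.24 for telomerase 2 and 0.11 for telomerase 3, and 0.49 for the parental tumour. Over all tested genes these medians ran from −0.01 to 0.03. Telomerase 3 lay inside the range of the ALT tumours in 14 of the 27 genes (51.9%, against 52% of all tested genes), telomerase 2 in 12 (44.4% against 50.6%) and telomerase 1 in 8 (29.6% against 49.3%). The order of these 3 arrays is also that of their muscle transcripts, and telomerase 3 is the one with pancreatic transcripts, whose part was not tested.

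**Figure D5:**
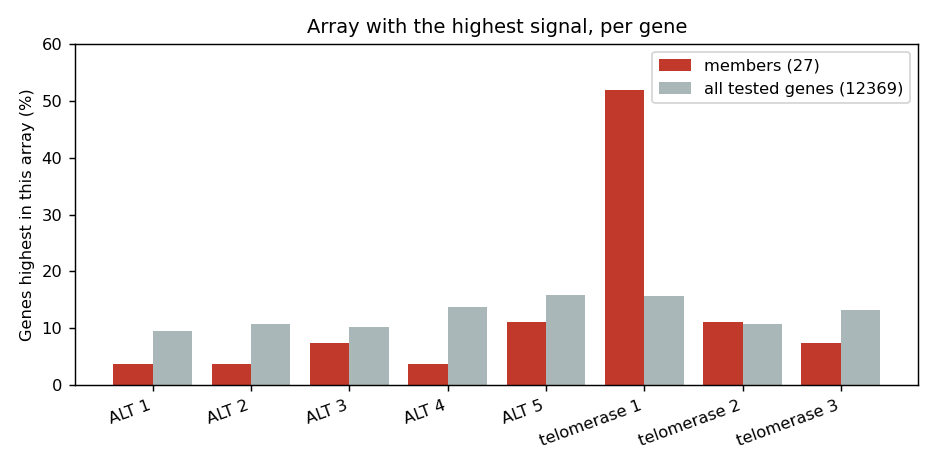
Percentage of genes whose highest signal among the 8 passage 4 arrays is in the array named, for the 27 tested genes of the set and for all 12369 tested genes. Telomerase 1 holds 51.9% of the set and 15.7% of all tested genes.

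Among the ALT tumours, ALT 5 was the highest in 9 of the 27 genes (33.3%, against 23.5% of all tested genes), and ALT 3 and ALT 4 were the lowest in 9 and 8 (33.3% and 29.6%, against 20.7% and 16.6%). The parental tumour lay nearer to the telomerase mean than to the ALT mean in 22 of the 27 genes (81.5%, against 71.2% of all tested genes). Of the 3 telomerase tumours, telomerase 1 was nearest to it in 19 (70.4%, against 44.7%). The median difference of the 27 genes between the parental tumour and telomerase 1 was 0.02 on the log2 scale. With the parental tumour counted among the telomerase arrays 11 of the 27 fell (40.7%, against 14.3% of all tested genes that fell and 10.5% that rose), the 5 above and Ccng1, Ercc5, Mdm4, Rps27l, Sesn2 and Trp53inp1. Log2 signals of the parental tumour correlated at 0.991 with telomerase 1, and at 0.981 and 0.955 with telomerase 2 and 3. Both it and telomerase 1 carry muscle transcripts, whose part in the 11 that fell was not tested. The parental tumour is not labelled passage 4, so that fit does not add an independent passage 4 replicate.

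Further targets of p53 outside the set were read from a list of 40, of which 36 were measured and 34 tested. Of these 6 fell and 2 rose (17.6% and 5.88%, against 10.1% and 7.48% of all tested genes), and the median log2 change was 0.05. A lower mean in ALT tumours was seen in 15 of the 34 (44.1%, against 50.9% of all tested genes). The 2 that rose were Dusp1 and Trp53inp2 (log2 change 0.59 and 0.40, limma adjusted p = 0.0369 and 0.0320). Notch1 fell (log2 change −0.37, adjusted p = 0.0316), as did the 5 genes described next. Cdkn1a, which encodes the cell cycle inhibitor p21 and is the classic p53 target, read 131, 110, 103, 55.0 and 386 in ALT 1 to 5, against 1633, 752 and 371 in telomerase 1 to 3, and 1311 in the parental tumour. A second probe set read 34.2 to 198 in ALT and 254 to 984 in telomerase tumours, without overlap (log2 change −2.64, limma adjusted p = 0.00412 over all probe sets). The main probe set of Cdkn1a ordered the telomerase tumours as Zmat3, Ccng1 and Phlda3 did, and ALT 5 was again the highest ALT tumour. Its log2 change was −2.45 (SE 0.56, adjusted p = 0.0145), −1.92 without telomerase 1 (adjusted p = 0.0701), −3.61 in arrays without pancreatic transcripts (adjusted p = 0.00517) and −0.99 in those with them (adjusted p = 0.455).

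The windows with adjacent decamers are shown because they are the closest matches in the set, with the 20 letters in capitals. They belong to Ccng1 (chr11:40755237-40755536, minus strand) and Rps27l (chr9:66946163-66946462, plus strand), and the upstream window of Cdkn1a (chr17:29090729-29091028, plus strand) is set beside them. In each of the 3 the capitals are 1 letter off the consensus. They begin 195, 117 and 51 bases before the transcript start of the window shown in Ccng1, Rps27l and Cdkn1a. Rps27l and Cdkn1a each have another window, for another start, with 0 decamers and at best 4 and 5 letters off the adjacent pair. The signals of these 3 genes in the ALT tumours differ in size of change, with log2 changes of −0.69, −0.20 and −2.45 as given above, and only Cdkn1a passed. Zmat3 and Rrm2b are named without a window.
Ccng1: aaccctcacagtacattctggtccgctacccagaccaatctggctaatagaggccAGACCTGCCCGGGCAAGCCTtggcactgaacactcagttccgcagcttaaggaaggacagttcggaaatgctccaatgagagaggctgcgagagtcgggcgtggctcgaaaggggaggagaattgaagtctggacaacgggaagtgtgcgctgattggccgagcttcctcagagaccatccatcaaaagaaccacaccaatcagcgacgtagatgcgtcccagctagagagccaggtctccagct
Rps27l: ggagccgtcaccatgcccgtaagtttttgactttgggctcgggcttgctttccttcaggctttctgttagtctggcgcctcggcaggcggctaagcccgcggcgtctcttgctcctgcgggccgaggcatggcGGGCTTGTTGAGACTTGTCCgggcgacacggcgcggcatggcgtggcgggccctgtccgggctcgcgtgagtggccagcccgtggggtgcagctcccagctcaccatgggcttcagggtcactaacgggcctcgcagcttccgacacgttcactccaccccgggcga
Cdkn1a: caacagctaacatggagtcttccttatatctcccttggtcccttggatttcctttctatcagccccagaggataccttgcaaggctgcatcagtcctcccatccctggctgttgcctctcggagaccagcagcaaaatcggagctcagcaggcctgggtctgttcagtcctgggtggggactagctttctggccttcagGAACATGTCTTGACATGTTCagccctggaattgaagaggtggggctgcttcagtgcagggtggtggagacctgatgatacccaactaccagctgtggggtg

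The smallest p of that list belonged to Prkab1, a regulatory subunit of AMP-activated kinase. It read 56.0, 44.7, 30.9, 25.4 and 64 in ALT 1 to 5, against 224, 199 and 200 in telomerase 1 to 3, and 255 in the parental tumour. The 3 telomerase tumours were level there, telomerase 1 with its muscle transcripts included, and the log2 change was −1.94 (SE 0.21, adjusted p = 0.000395). It passed in every fit that left out 1 array and within both kinds of array (adjusted p = 0.00135 without and 0.0283 with pancreatic transcripts, the second with 1 telomerase tumour). With the mean of its 2 probe sets the change was −0.85 (adjusted p = 0.00203). Psrc1, a spindle protein gene, had a log2 change of −1.19 with no overlap of the groups (adjusted p = 0.0222), and it lost its call without telomerase 1 (adjusted p = 0.0693), telomerase 2, ALT 1 or ALT 2, and with the mean of its probe sets (log2 change −0.56, adjusted p = 0.135). Gpx1, a glutathione peroxidase gene, and Pltp, a phospholipid transfer protein gene, fell too, with log2 changes of −0.35 and −0.53 (limma adjusted p = 0.0203 and 0.0205), and both lost their calls without telomerase 1 (adjusted p = 0.0977 and 0.0784), and Pltp also without telomerase 2 (adjusted p = 0.0901). Bax was not analysed here.

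Of 28 tested regulators, partners and relatives of p53, from a list of 30, 6 fell and 1 rose (21.4% and 3.57%, against 10.1% and 7.48% of all tested genes), with a median log2 change of −0.03. Cdkn2a encodes p16 and p19Arf, of which p19Arf frees p53 from Mdm2. It read 4.90, 3.44, 8.73, 9.20 and 3.26 in ALT 1 to 5, against 214, 64.2 and 41.5 in telomerase 1 to 3, and 106 in the parental tumour (log2 change −2.23, SE 0.39, adjusted p = 0.00383). All ALT signals lie below the value of 16 that was added before taking logs, so the size of this change depends on that value. They also lie below the filter limit of 25.3. Cdkn2a was therefore tested only through its telomerase and parental signals, which favours a fall, and its call carries this limit. Without telomerase 1 it was −1.64 (adjusted p = 0.00446). Dyrk2, a kinase that phosphorylates p53, rose, at 1226, 1203, 1312, 1383 and 1282 in ALT 1 to 5, against 863, 890 and 796 in telomerase 1 to 3 (log2 change 0.58, SE 0.08, adjusted p = 0.00104). Those groups lay far apart for their spread, and the call held whichever array was left out.

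Atr, the damage kinase next to Atm, was at 398 to 466 in ALT and 538 to 619 in telomerase tumours (log2 change −0.43, SE 0.09, adjusted p = 0.00996, and 0.0581 without telomerase 1). Kmt5a, which methylates p53, was at 1362 to 1670 in ALT and 1987 to 2011 in telomerase tumours, and Trp53bp2, a p53-binding protein gene, at 206 to 260 and 309 to 324 (log2 change −0.37 and −0.45, adjusted p = 0.0133 and 0.0129). Kmt5a lost its call without telomerase 1 and Trp53bp2 without telomerase 2. With the mean of probe sets per gene Atr (log2 change −0.33, adjusted p = 0.0935) and Kmt5a (−0.24, adjusted p = 0.155) did not pass. Atm did not pass (log2 change −0.12, adjusted p = 0.680), and whether its probe set lies in the deleted part was not analysed here.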

How the data were processed

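RNA from 9 mouse tumours was read on biotin-labelled expression arrays. The authors deposited a linear intensity for each of 45101 probe sets per array, and MAS5 is the tool listed in the submitters' processing notes, without version or scaling target. Array medians (39.8 to 43.8) lay close together, so the values were used without further normalisation. The table holds no detection calls, and precision is limited by how many arrays there are.

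The array annotation gave 34958 probe sets 1 gene, and each of 18194 genes was represented by its probe set of highest mean signal. Genes with a mean among the lowest 40% of all probe sets (limit 25.3) were not tested. The log2 of the signal plus 16 was fitted with limma 3.58.1 in R 4.3.3 (5 ALT against 3 telomerase tumours, intensity trend, two-sided, Benjamini-Hochberg adjustment over 12369 genes). The model was tested on simulated data. Log2 changes of genes near 16 depend on the added value. Arrays with a summed acinar signal above 5000 counted as carrying pancreatic transcripts.

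All 27 tested members are described by role. Values per array are given for members past the threshold, for Mdm2 and Mdm4, and for others picked after their values were seen. Where probe sets of a member disagree, the text gives values per array of another probe set for Ppm1d, Mdm4 and Aen only. From the further targets and regulators the 5 with the smallest p were named, with Cdkn1a, Atm and Cdkn2a in any case. Notch1, Dusp1 and Trp53inp2 were named as the remaining further targets that passed. The members and lists were chosen with earlier results of these data known. Other settings changed the filter, the added value, the normalisation, the probe set per gene, the arrays used, a replicate block and the variance trend. Plots used matplotlib 3.10.9.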

Additional observations from a re-analysis of the deposited data

Results flagged for a closer look

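Among the 38 genes examined, 2 had an ALT tumour far from the other 4; chance alone gives this in about 1 group in 20. Ppm1d had a signal of 176 in ALT 2, against 131 to 140 in the other ALT tumours, still below all 3 telomerase tumours. Cdkn1a had a signal of 386 in ALT 5, against 55.0 to 131 in the other ALT tumours. This value alone made the groups overlap for the main probe set of Cdkn1a, while they did not overlap for its second probe set. ALT 5 also had the highest sum of pancreatic acinar transcripts (197197), whose part in the Cdkn1a value was not tested.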

How the results depend on the processing

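Of the 27 tested members, 5 fell and 0 rose. The number that fell was 3 with quantile normalisation, 11 with the parental tumour among the telomerase arrays and 0 in arrays with pancreatic transcripts. Leaving out 1 array gave 2 to 6 that fell (2 without telomerase 1, 3 without telomerase 2 or ALT 2) and 0 to 1 that rose (Fas, without ALT 4); with each probe set on its own 2 rose. For the further targets (6 fell, 2 rose), 1 rose without the expression filter and without the variance trend, 3 fell and 0 rose in arrays without pancreatic transcripts, and 1 and 0 in arrays with them. Leaving out 1 array gave 1 to 6 that fell and 0 to 2 that rose. For the regulators (6 fell, 1 rose), 1 fell in arrays without pancreatic transcripts, and 0 fell and 0 rose in arrays with them. Leaving out 1 array gave 2 to 6 that fell and 1 to 2 that rose. Over all genes (1245 fell, 925 rose), 454 fell and 379 rose in arrays without pancreatic transcripts and 198 and 138 in arrays with them, where fewer arrays were compared. Leaving out 1 array gave 659 to 1271 that fell and 504 to 910 that rose. With the replicate block, 2 members fell (Zmat3 and Ei24), 3 further targets fell and 0 rose, 1 regulator fell, and 619 of all genes fell and 372 rose. The labels do not say that replicate numbers pair the samples, and this could not be checked: deviations of same-numbered ALT and telomerase tumours correlated at −0.30, −0.40 and −0.57, but each such pair joins an array with and one without pancreatic transcripts. The cause of these moves was not tested. Without detection calls, how far signals near 16 lie above background is unknown.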
